A study of Mus musculus with 9 samples.

Results

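The Zic genes encode transcription factors with tandem zinc fingers, and 4 of them were followed here: Zic1, Zic4, Zic2 and Zic5. The rule that picks their probe sets goes by gene symbol, and all 4 were among the 19938 genes that had a probe set annotated to 1 gene only. Where a gene had several such probe sets, the one with the highest mean over the 9 arrays stood for it. RNA was measured in mice at postnatal day 13 on Affymetrix Mouse Gene 1.0 ST arrays, with 3 arrays in each of 3 groups. The groups were medulloblastoma, a tumour of the cerebellum, from mice of genotype Ptch1KO; cerebellum from mice of genotype SufuKO; and cerebellum from wildtype mice. The labels give neither strain, nor sex, nor the driver of the deletions, nor whether animals were pooled. Whether the 3 arrays of a group stand for 3 different animals is not stated either. In each mutant group 1 array had high Xist, an RNA of female cells, and 2 had high Y-linked RNAs, so the 3 arrays did not all come from 1 animal. For wildtype the arrays give no such sign, and the spread there may be technical.

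Zic factors take their family name from the cerebellum, where granule neurons and their progenitors make them. The genes lie in head-to-head pairs, Zic1 with Zic4 and Zic2 with Zic5. Their zinc fingers are related to those of the Gli factors that carry Hedgehog signals, and Zic proteins can bind Gli proteins. In mice, loss of Zic1 leaves a small cerebellum with too few granule cells. Ptch1 is the receptor that holds the Hedgehog pathway off and Sufu is the protein that restrains the Gli factors, so both mutants concern the pathway that drives granule neuron progenitors to divide.

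In RefSeq (GRCm38.p6), Zic1 and Zic4 are direct neighbours on chromosome 9, and Zic5 and Zic2 lie on chromosome 14 with the long noncoding RNA gene 2610035F20Rik between them. Promoter windows of 250 bases before and 50 bases after the annotated start are shown for Zic4 and Zic5, which were higher in Sufu KO cerebellum, and for Zic1, the partner of Zic4, which passed no test; 3 of the 4 genes were matched. Capitals mark CCACCC, the core of the Gli binding site, on either strand. All 3 sequences are from RefSeq, and each window is given on the strand of its gene. Zic4 lies at chr9:91368722-91369021 on the plus strand, Zic1 at chr9:91365719-91366018 on the minus strand, and Zic5 at chr14:122465609-122465908 on the minus strand.
Zic4: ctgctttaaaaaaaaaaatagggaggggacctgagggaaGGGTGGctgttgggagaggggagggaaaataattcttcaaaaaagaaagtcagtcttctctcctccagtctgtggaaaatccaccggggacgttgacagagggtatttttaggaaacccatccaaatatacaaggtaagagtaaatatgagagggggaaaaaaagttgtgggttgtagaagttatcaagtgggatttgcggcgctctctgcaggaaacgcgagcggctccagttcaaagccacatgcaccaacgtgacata
Zic1: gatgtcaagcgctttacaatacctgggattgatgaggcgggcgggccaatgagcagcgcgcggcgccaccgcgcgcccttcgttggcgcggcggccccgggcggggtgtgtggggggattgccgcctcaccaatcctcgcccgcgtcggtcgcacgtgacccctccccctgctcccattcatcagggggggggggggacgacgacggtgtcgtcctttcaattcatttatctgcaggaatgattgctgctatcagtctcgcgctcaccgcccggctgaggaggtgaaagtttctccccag
Zic5: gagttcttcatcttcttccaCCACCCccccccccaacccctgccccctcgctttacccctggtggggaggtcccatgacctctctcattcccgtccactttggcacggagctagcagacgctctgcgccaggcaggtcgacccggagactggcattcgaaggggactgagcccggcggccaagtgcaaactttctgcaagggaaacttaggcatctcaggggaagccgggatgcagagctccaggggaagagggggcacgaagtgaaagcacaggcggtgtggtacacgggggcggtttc

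The core CCACCC occurred 1 time in the Zic4 window and 1 time in the Zic5 window, and 0 times in that of Zic1. It is common, since 31.5% of the 32851 promoter windows in the table hold it on one strand or the other. The longer Gli site GACCACCCA, which contains the core, was in none of the 3 windows and in 0.253% of all windows. CAGCAGG, a sequence bound by Zic factors, was also in none of the 3 and in 10.5% of all. The windows differed in base composition. Zic1 had 65.3% G and C with 31 CpG pairs, Zic5 62.7% with 15, and Zic4 46.0% with 8, against medians of 52.7% and 7 over all windows. The letters of these windows are a description and say nothing about which factor binds there.

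The arrays were on a like scale, with medians between 6.72 and 6.79 (log2). Sufu, the gene deleted in the SufuKO group, averaged 8.07 ± 0.07 there and 8.96 ± 0.12 in wildtype (log2, SD, n = 3 each; limma adjusted p = 9.70e-06). The deleted part of Ptch1 is not given, and Ptch1 RNA, which is itself induced by the pathway, was 1.02 log2 units higher in the tumours than in wildtype. Xist was high on 3 of 3 wildtype arrays, against 1 of 3 in each mutant group, so sex was unbalanced between the mutants and wildtype. All values are log2 expression as the authors deposited them, and 3 arrays per group limit the precision of every difference. The samples are bulk tissue, in which fewer cells of a type and less RNA per cell cannot be told apart.

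**Figure D1:**
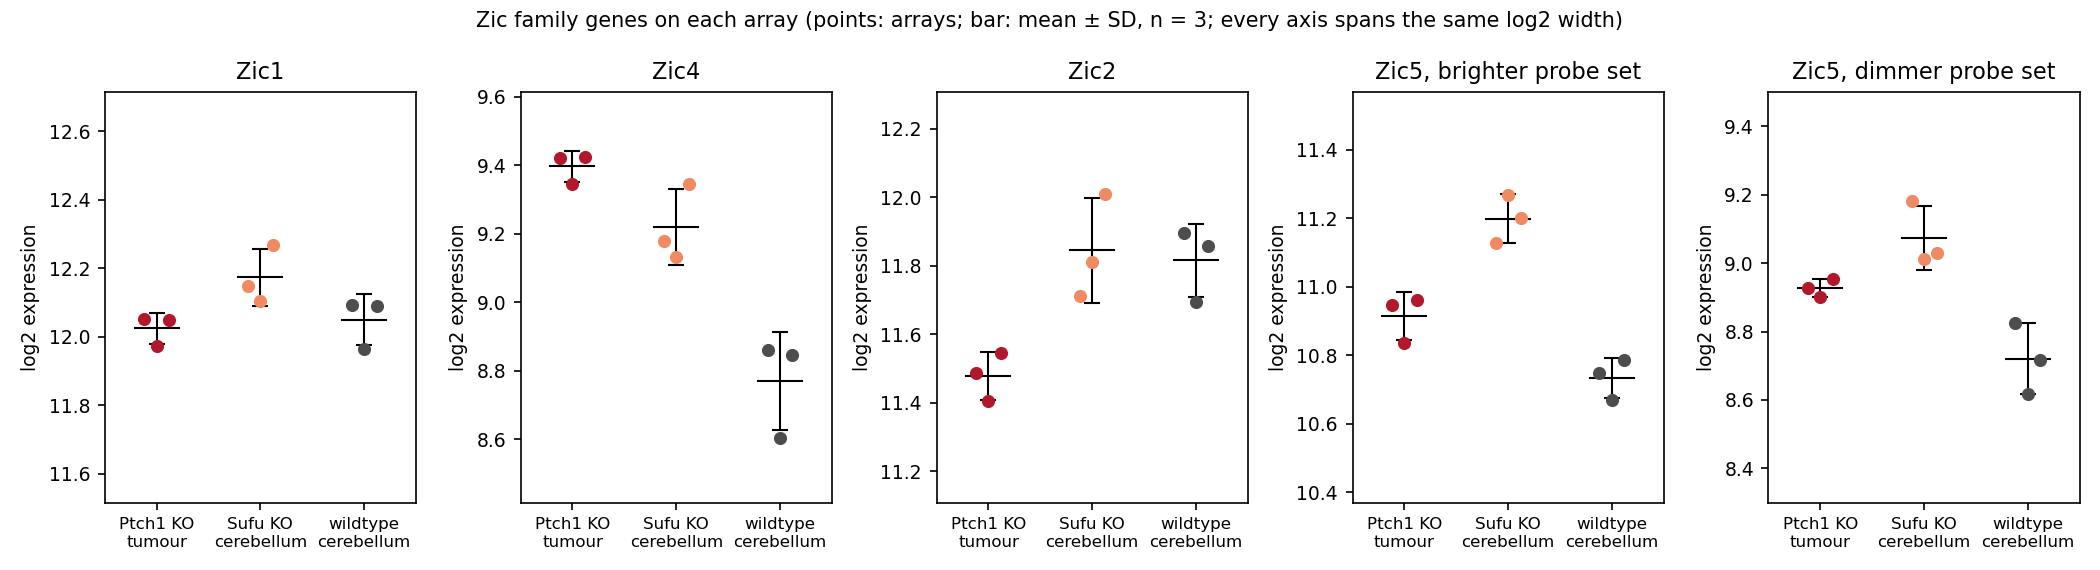
Log2 expression of Zic1, Zic4, Zic2 and both Zic5 probe sets on each array, in Ptch1 KO tumours, Sufu KO cerebellum and wildtype cerebellum. Points are arrays and bars are the mean ± SD of 3; each axis spans the same log2 width, so that Zic4 and Zic5 can be seen to sit above wildtype in both mutants and Zic2 to sit lowest in the tumours.

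Zic1, which keeps granule neuron progenitors from leaving the cell cycle early, passed the test in no comparison. It read 12.05, 11.97 and 12.05 in the Ptch1 KO tumours, 12.15, 12.10 and 12.27 in Sufu KO cerebellum, and 12.09, 11.96 and 12.09 in wildtype (log2). All 3 Sufu KO arrays lay just above both other groups, which overlapped each other. The log2 difference was 0.12 in Sufu KO against wildtype (95% confidence interval -0.028 to 0.28, limma adjusted p = 0.235). For the tumours against wildtype it was -0.025 (-0.18 to 0.13, adjusted p = 0.819), and for the tumours against Sufu KO -0.15 (-0.30 to 0.0034, adjusted p = 0.141). These intervals leave room for changes of up to about 0.30 log2 units. Zic1 was also bright, and the brightest value of any probe set on any array was 13.78, so a narrowing of differences near the top of the scale was not tested.

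Zic4, the partner of Zic1, was higher in both mutants. In humans a deletion that takes ZIC1 and ZIC4 together has been linked to a malformation of the cerebellum. Its values were 9.42, 9.35 and 9.42 in the tumours, 9.18, 9.13 and 9.35 in Sufu KO cerebellum, and 8.86, 8.60 and 8.85 in wildtype (log2). Every array of either mutant stood above every wildtype array, whereas the mutants overlapped each other. Zic4 rose 1.54-fold in the tumours against wildtype (log2 difference 0.63 ± 0.085, SE, limma adjusted p = 5.42e-05), the largest difference of the 4 genes in any comparison. It rose 1.37-fold in Sufu KO against wildtype (0.45 ± 0.085, adjusted p = 0.00218). The tumours and Sufu KO differed by 0.18 (95% confidence interval -0.0080 to 0.36), which did not pass (adjusted p = 0.150).

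A second, dim probe set annotated to Zic4 did not follow this pattern. It read 5.49 to 5.73 in the tumours, 5.46 to 5.58 in Sufu KO and 5.64 to 5.78 in wildtype, while the 25th percentiles of the arrays lay between 5.32 and 5.41. Its log2 differences from wildtype were -0.093 in the tumours (limma adjusted p = 0.374) and -0.18 in Sufu KO (adjusted p = 0.111). Probe sets of this array are numbered largely by chromosome. Of the 20 single-gene probe sets nearest to it by number, 19 were of chromosome 7 genes and 0 of chromosome 9 genes, whereas 19 of the 20 nearest to the brighter Zic4 probe set were of chromosome 9 genes. When both Zic4 probe sets were averaged, the rise in Sufu KO was 0.13 (adjusted p = 0.198) and that in the tumours 0.27 (adjusted p = 0.00681).

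Zic2, which acts together with Zic1 in the growth of the cerebellum and whose human counterpart is mutated in holoprosencephaly, was lower in the tumours. Its values were 11.49, 11.40 and 11.54 in the tumours, 11.71, 11.81 and 12.01 in Sufu KO cerebellum, and 11.89, 11.69 and 11.86 in wildtype (log2). No tumour array reached any array of the other groups, which overlapped each other. Zic2 was 1.26-fold lower in the tumours than in wildtype (log2 difference -0.34 ± 0.088, SE, limma adjusted p = 0.00669). Against Sufu KO it was 1.29-fold lower in the tumours (-0.37 ± 0.088, adjusted p = 0.00706). The difference between Sufu KO and wildtype was 0.029, with a 95% confidence interval of -0.16 to 0.22 (adjusted p = 0.864).

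Zic5, a factor needed in mice for closure of the neural tube, was highest in Sufu KO cerebellum. Its brighter probe set read 10.95, 10.84 and 10.96 in the tumours, 11.13, 11.27 and 11.20 in Sufu KO, and 10.75, 10.67 and 10.78 in wildtype (log2). The groups did not overlap, in the order Sufu KO, tumours, wildtype from high to low. Zic5 rose 1.38-fold in Sufu KO against wildtype (log2 difference 0.46 ± 0.069, SE, limma adjusted p = 0.000449). It was 1.22-fold lower in the tumours than in Sufu KO (-0.28 ± 0.069, adjusted p = 0.00749). The tumours stood 1.13-fold above wildtype (0.18 ± 0.069, adjusted p = 0.0485), and that call was lost in 12 of 21 other settings, over which adjusted p values ran from 0.00764 to 0.191. Among the 12 were the fits without wildtype replicate 1 (0.19, adjusted p = 0.0907), replicate 2 (0.15, adjusted p = 0.166) or replicate 3 (0.21, adjusted p = 0.0558). It was also lost without Sufu KO replicate 2 (0.18, adjusted p = 0.0606) or replicate 3 (0.18, adjusted p = 0.0516). Leaving out tumour replicate 1 (0.16, adjusted p = 0.131) or tumour replicate 3 (0.16, adjusted p = 0.117) ended it as well.

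Of the 20 single-gene probe sets nearest by number to this brighter Zic5 probe set, 19 were of chromosome 11 genes and 0 of chromosome 14 genes, where Zic5 lies. What the probe set measures beside Zic5 was not tested. A dimmer Zic5 probe set, with 14 of its 20 nearest on chromosome 14, read 8.93, 8.90 and 8.95 in the tumours, 9.18, 9.01 and 9.03 in Sufu KO, and 8.82, 8.62 and 8.72 in wildtype. Its groups stood apart in the same order. In a fit over all single-gene probe sets it rose 1.28-fold in Sufu KO against wildtype (log2 difference 0.35 ± 0.074, SE, limma adjusted p = 0.00449). It was 1.15-fold higher in the tumours than in wildtype (0.21 ± 0.074, adjusted p = 0.0370). Between the tumours and Sufu KO its difference was -0.15 ± 0.074 (adjusted p = 0.177), the same direction as in the brighter probe set but without a call. With both Zic5 probe sets averaged, this difference was -0.22 (limma adjusted p = 0.0234).

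**Figure D2:**
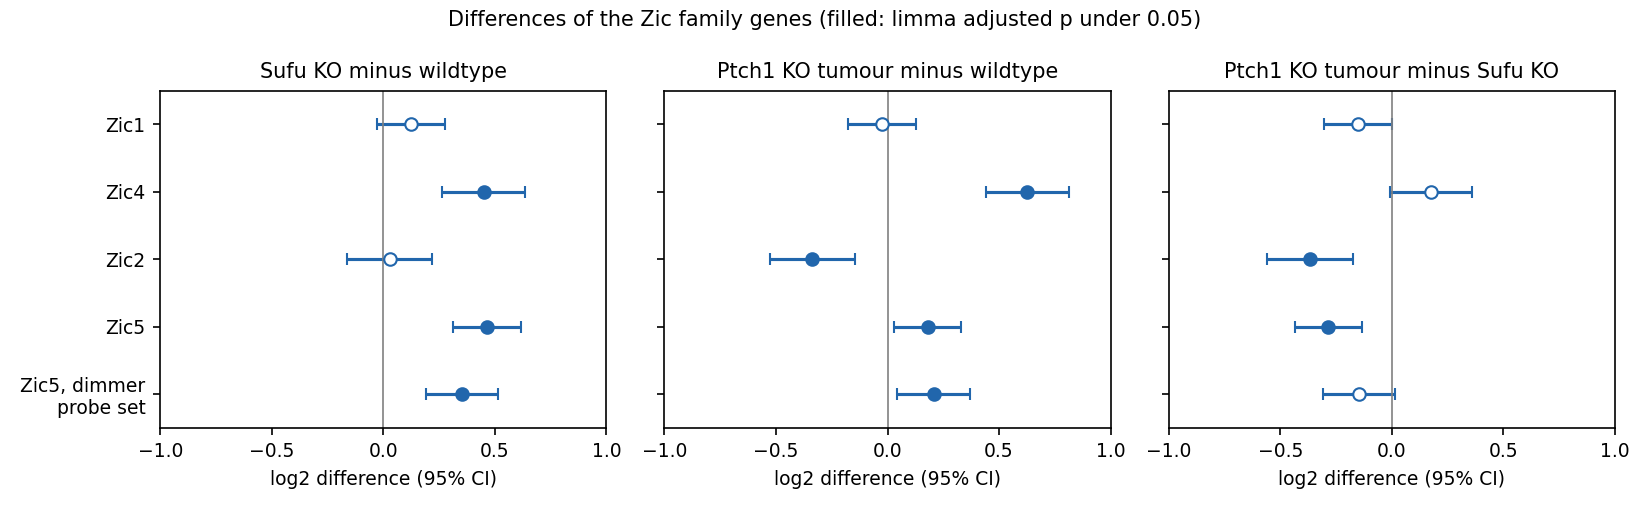
Log2 differences of the 4 Zic genes and of the dimmer Zic5 probe set in Sufu KO minus wildtype, Ptch1 KO tumour minus wildtype and Ptch1 KO tumour minus Sufu KO. Points are estimates of the limma fit, bars are 95% confidence intervals and filled points passed an adjusted p of 0.05; Zic4 lies to the right of 0 in both mutants, while Zic2 lies to the left in the tumours.

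Counted together, 2 of the 4 genes rose and 0 fell in Sufu KO against wildtype, with a median log2 difference of 0.29. Over all 16323 genes tested in that comparison, 25.4% passed the same threshold, 13% higher and 12.4% lower, with a median of -0.0061. In the tumours against wildtype 2 rose and 1 fell, with a median of 0.078, while 46.8% of all genes passed, 22.1% higher and 24.7% lower. In the tumours against Sufu KO 0 rose and 2 fell, with a median of -0.22, beside 29.7% of all genes, 12.2% higher and 17.5% lower. Groups did not overlap for 3 of the 4 genes in each comparison, where 41.0%, 56.6% and 39.7% of all genes did not overlap in the same order of comparisons. Both comparisons with wildtype share the wildtype arrays, and wildtype replicate 2 had the lowest wildtype value for 4 of the 4 genes, as tumour replicate 2 had among the tumours. Without wildtype replicate 2 Zic4 stayed higher, by 0.54 in the tumours and by 0.37 in Sufu KO (limma adjusted p = 0.000277 and 0.0109), and Zic5 by 0.43 in Sufu KO (adjusted p = 0.00340). With sex as a covariate, Zic4 was higher by 0.66 in the tumours (adjusted p = 0.000245) and by 0.49 in Sufu KO (adjusted p = 0.00612). In that fit Zic2 was lower in the tumours than in wildtype (-0.29, adjusted p = 0.0428). The sex effect in that fit came from the mutant arrays alone, since Xist was high on 3 of 3 wildtype arrays.

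The gap between the partners of a head-to-head pair did not overlap between groups in 5 of 6 comparisons. No share over other gene pairs was computed for this count. Among single genes, 41.0% did not overlap in Sufu KO against wildtype, 56.6% in the tumours against wildtype and 39.7% in the tumours against Sufu KO. Within an array, Zic1 stood above Zic4 by 2.63, 2.63 and 2.63 log2 units in the tumours, by 2.97, 2.97 and 2.92 in Sufu KO, and by 3.23, 3.36 and 3.25 in wildtype. The 3 groups did not overlap, and the SD of this gap was 0.0025 in the tumours, 0.029 in Sufu KO and 0.069 in wildtype. The gap was 0.65 smaller in the tumours than in wildtype (log2 difference -0.65), with an exact permutation p of 0.1, which is the smallest that 3 against 3 can give. For Sufu KO against wildtype (-0.33) and for the tumours against Sufu KO (-0.33) the exact permutation p was also 0.1. Zic2 stood above Zic5 by 0.54, 0.57 and 0.58 in the tumours, by 0.59, 0.54 and 0.81 in Sufu KO, and by 1.15, 1.02 and 1.07 in wildtype. This gap was smaller in both mutants than in wildtype, by -0.52 in the tumours and by -0.44 in Sufu KO (log2 differences, exact permutation p = 0.1 each, 2-sided), with no overlap. The mutants overlapped each other (-0.082, exact permutation p = 0.4). After adjustment over the 6 comparisons the values were 0.12 for 5 of them and 0.4 for the last, so none could pass. With both Zic4 probe sets averaged, the Zic1 minus Zic4 gap of Sufu KO differed from that of wildtype by only -0.0090 (exact permutation p = 0.8). The Zic2 minus Zic5 gap above was read from the brighter Zic5 probe set. With the dimmer Zic5 probe set it differed from wildtype by -0.54 in the tumours and by -0.32 in Sufu KO (exact permutation p = 0.1 each). The tumours then differed from Sufu KO by -0.22 (exact permutation p = 0.3). A gap between probe sets is not a ratio of RNA amounts, and what was compared is only how it differed between groups.

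**Figure D3:**
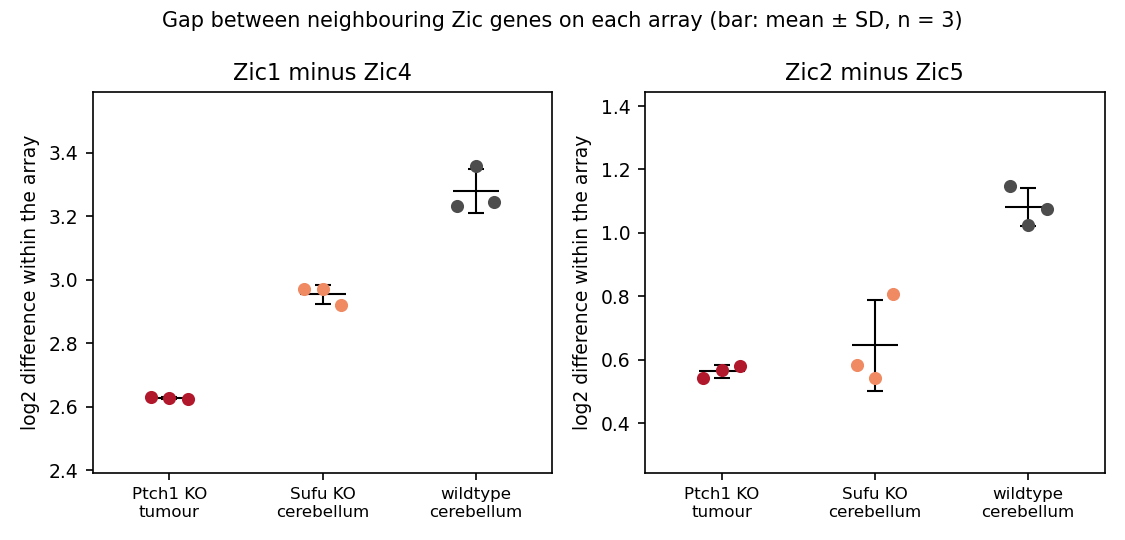
Within-array log2 difference between neighbouring Zic genes, Zic1 minus Zic4 and Zic2 minus Zic5, in Ptch1 KO tumours, Sufu KO cerebellum and wildtype cerebellum. Points are arrays and bars are the mean ± SD of 3, with Zic4 and Zic5 read by their brighter probe sets. For Zic1 minus Zic4 the means were 2.63, 2.95 and 3.28 in that order, and for Zic2 minus Zic5 they were 0.56, 0.65 and 1.08.

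Genes next to the Zic loci were read for comparison. On the Zic5 side of chromosome 14, Clybl, a mitochondrial lyase gene, rose in Sufu KO against wildtype (log2 difference 0.34, limma adjusted p = 0.00510). It was 0.078 above wildtype in the tumours (adjusted p = 0.442) and lower in the tumours than in Sufu KO (-0.26, adjusted p = 0.0177). The noncoding gene Gm5089, between Clybl and Zic5, passed in no comparison (0.27 in Sufu KO and 0.19 in the tumours against wildtype). On the Zic2 side, Pcca, a subunit of propionyl-CoA carboxylase, fell in Sufu KO (-0.39, adjusted p = 0.00226) and in the tumours (-0.74, adjusted p = 4.29e-06) against wildtype. Ggact, the next measured gene beyond it and an enzyme of glutamyl-amine breakdown, fell by -0.51 and -1.12 in the same comparisons (adjusted p = 0.00165 and 8.63e-07). The genes nearest to Zic1 and Zic4 by order on chromosome 9 had no single-gene probe set. Of the next ones that did, Tbc1d2b, a regulator of endosomal Rab proteins, and Plscr2, a member of the scramblase family, rose in the tumours against wildtype (0.53 and 0.51, adjusted p = 0.000215 and 7.17e-05). In Sufu KO they read 0.058 and 0.079 (adjusted p = 0.697 and 0.490). Plscr2 was dim, averaging 5.43 in wildtype and 5.94 in the tumours (log2), beside array 25th percentiles of 5.32 to 5.41. Adamts7 and Plscr1 passed in no comparison.

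The profile of each member over the 9 arrays was set against those of 15465 other tested genes, by the root mean square difference of values centred on each gene's mean. Zic4 lay nearest to Rbbp4, a histone chaperone, at 0.065 log2 units, to the zinc finger gene Zfp90 at 0.067 and to Skida1 at 0.070. Zic5, read by its brighter probe set, lay nearest to Nav3, a neuron navigator gene (0.035). Next came Rgs9, a regulator of G protein signalling (0.044), and Fbxo10, an F-box gene (0.050). For Zic2 the nearest were Cyria, Camsap3, which binds the minus ends of microtubules, and Tprn, at 0.041 to 0.045. For Zic1 they were the splicing factor gene Syf2, the casein kinase gene Csnk1g1 and Camsap1, at 0.033 to 0.037. Zic1 itself varied little, with a root mean square of 0.087 about its mean, beside a median of 0.137 over tested genes. The members were not each other's nearest. From Zic1, Zic4 lay at 0.27 and ranked 12154, whereas Zic2, its closest relative by rank among the members, lay at 0.14 and ranked 4964. From Zic5, Zic1 ranked 664 (0.15) and its own partner Zic2 ranked 6853 (0.24). These distances describe these arrays, in which most of a profile is the difference between 3 groups.

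Beside these small shifts, the list medians of the granule neuron lineage moved further. For scale, 13% of all tested genes rose and 12.4% fell in Sufu KO against wildtype, and 22.1% rose and 24.7% fell in the tumours. Of 17 tested genes of granule neuron progenitors and newborn granule neurons, 13 rose and 0 fell in Sufu KO against wildtype (median log2 difference 1.10), and 13 rose and 1, Barhl2, fell in the tumours (median 1.65). Atoh1, the factor that specifies these progenitors and whose enhancer Zic1 has been reported to act on in chick, rose by 1.50 in Sufu KO and by 3.41 in the tumours (limma adjusted p = 0.000183 and 5.66e-08). Ccnd2, a G1 cyclin gene, rose by 2.18 and 2.50 in the same comparisons. Of 13 mature granule neuron genes, 0 rose and 9 fell in Sufu KO (median -0.67), and 0 rose and 13 fell in the tumours (median -1.78). Calb2, a calcium-binding protein, fell by -0.97 and -2.25, and Etv1, a factor of maturation, by -0.68 and -1.78. All 17 tested genes of mitosis and proliferation rose in both mutants, with medians of 1.77 in Sufu KO and 2.68 in the tumours. Zic factors are made at both stages of the lineage, and the 4 members stayed within 0.63 log2 units of wildtype in both mutants. So did Neurod1, Meis2, Lhx9 and Barhl2 of the progenitor list. These genes differed from wildtype by 0.070, -0.067, -0.0058 and -0.068 in Sufu KO. In the tumours the values were -0.11, -0.26, 0.044 and -0.40. How far cell composition entered the Zic values was not tested.

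**Figure D4:**
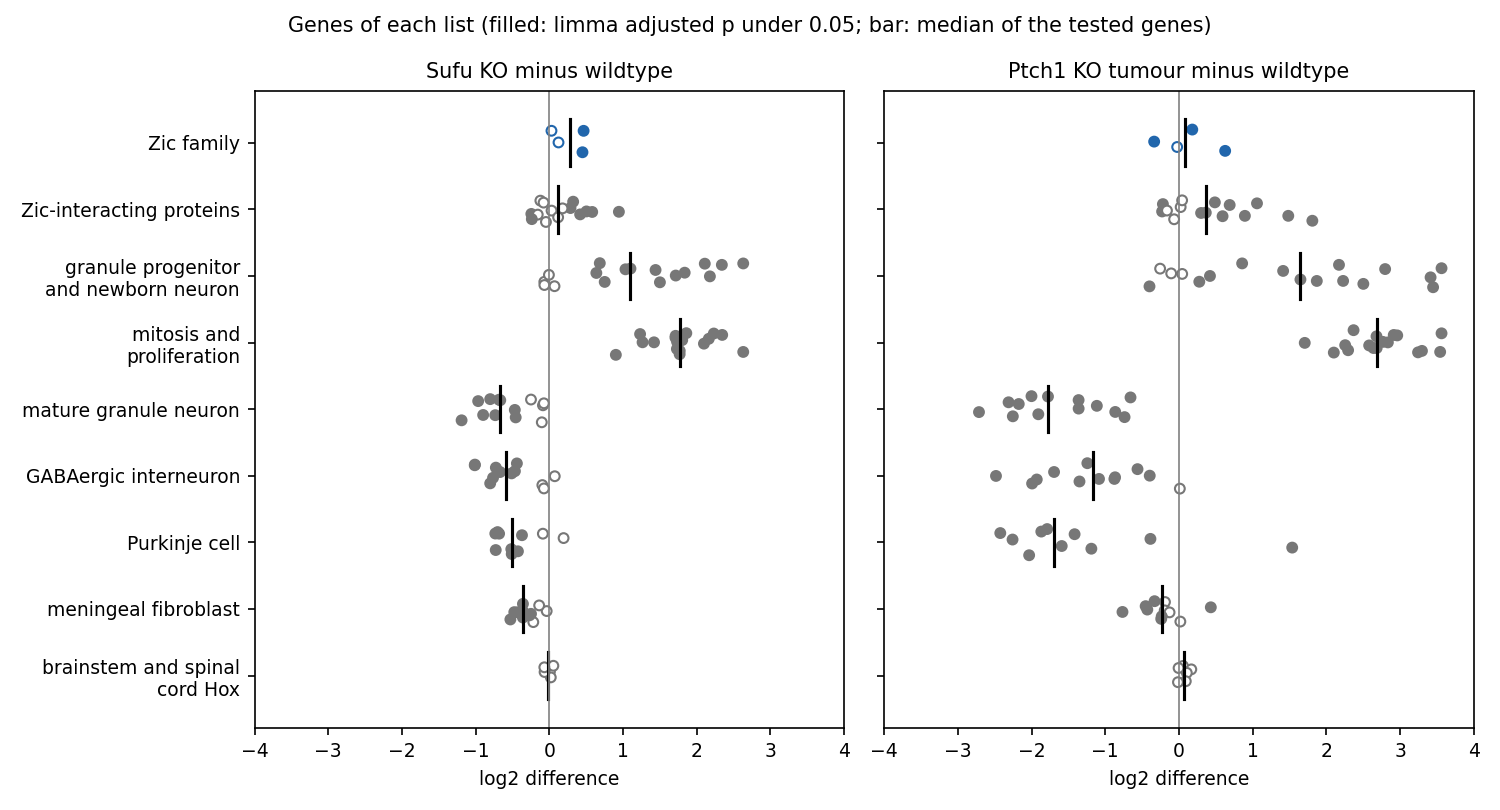
Log2 differences from wildtype of the Zic genes and of the genes of 8 lists, in Sufu KO cerebellum and Ptch1 KO tumours. Each point is a gene, filled where the limma adjusted p was under 0.05, and bars are list medians; the Zic genes lie between -0.34 and 0.63, whereas medians of the mitosis list were 1.77 and 2.68.

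Genes of proteins reported to bind Zic factors were mostly higher in RNA where they were called. Of 15 tested genes, 6 rose and 2 fell in Sufu KO against wildtype (median log2 difference 0.12), and 9 rose and 2 fell in the tumours (median 0.36). In the tumours against Sufu KO 6 rose and 0 fell (median 0.18). The shares of all genes called in these comparisons were 25.4%, 46.8% and 29.7%. The Sufu KO count of 8 dropped to 4 without wildtype replicate 2 and to 5 without Sufu KO replicate 2. Gli2, the main Gli activator, rose by 0.94 in Sufu KO and by 1.48 in the tumours (limma adjusted p = 0.000293 and 1.58e-06). Gli1, whose transcription the pathway induces, rose by 1.81 in the tumours (adjusted p = 1.76e-07) and read -0.12 in Sufu KO (adjusted p = 0.537). Dhx9, an RNA helicase found with ZIC2 in human cells, rose by 0.50 and 0.89 (adjusted p = 0.000552 and 1.23e-06). The genes that fell were Mdfi, an inhibitor of transcription factors (-0.24 in Sufu KO and -0.23 in the tumours), Tcf7l2, a mediator of Wnt signals, in Sufu KO (-0.24), and Kpna1, a nuclear import receptor, in the tumours (-0.22). Gmnn, the replication licensing inhibitor geminin, did not pass the filter on low values.

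Of 8 genes reported as downstream of Zic factors in other tissues or species, 3 rose and 1 fell in each comparison with wildtype. The 4 called in the tumours stand beside 46.8% of all genes, a share close to theirs, and the 4 called in Sufu KO beside 25.4%. In Sufu KO 2 were called, both higher, without wildtype replicate 2 or 3 and without Sufu KO replicate 2 or 3. Atoh1, the cell cycle inhibitor gene Cdkn1b (0.44, limma adjusted p = 0.000813) and Ephb1, an axon guidance receptor gene (0.29, adjusted p = 0.0224), rose in Sufu KO, where the lipid carrier gene Apoe fell (-0.27, adjusted p = 0.0447). In the tumours Atoh1, Ccnd1, a G1 cyclin gene (1.64, adjusted p = 4.96e-07), and Cdkn1b (0.39) rose. There Ephb1, which Zic2 is known to induce in retinal ganglion cells of the mouse, fell by -0.41 against wildtype (adjusted p = 0.00125) and by -0.70 against Sufu KO (adjusted p = 7.68e-05). Ephb1 was thus highest in Sufu KO and lowest in the tumours. Drd1, Slc6a3 and Slc6a4, which belong to neurons outside the cerebellar cortex, passed in no comparison.

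Zic genes are also made outside the granule lineage, in meninges and in precursors of GABAergic interneurons. Over all tested genes, 12.4% fell and 13% rose in Sufu KO against wildtype, and 24.7% fell and 22.1% rose in the tumours. Among 11 tested meningeal fibroblast genes, 8 fell and 0 rose in Sufu KO against wildtype (median log2 difference -0.35), while 6 fell and 1, Lum, rose in the tumours (median -0.23). The Sufu KO count was 5 without wildtype replicate 1, without wildtype replicate 2 or with a sex covariate. Keeping only genes above the array median on at least 3 arrays left 2 called in the tumours and 5 in Sufu KO. Their summed level was 10.51 to 10.66 in the tumours, 10.40 to 10.53 in Sufu KO and 10.71 to 10.84 in wildtype (log2). Of 12 GABAergic interneuron genes, 9 fell in Sufu KO and 11 in the tumours, and 0 rose (medians -0.59 and -1.17). The list was not limited to genes of the precursors. Not called in Sufu KO were Pax2 (-0.095, limma adjusted p = 0.432), Ptf1a (0.073, adjusted p = 0.530) and Sst (-0.074, adjusted p = 0.605). Ptf1a was not called in the tumours either (0.011, adjusted p = 0.924), where Pax2 fell by -0.40. The summed level of the 12 genes was 10.94 to 11.01 in the tumours, 11.79 to 11.91 in Sufu KO and 12.54 to 12.65 in wildtype. Zic2 was lower in the tumours than in both other groups, and its log2 difference between Sufu KO and wildtype was 0.029 (limma adjusted p = 0.864). Zic4 was higher in the tumours than in wildtype and overlapped Sufu KO. The part of these cell types in the Zic values was not tested.

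Other lists described the tissue. Of all tested genes, 25.4% were called in Sufu KO against wildtype, 13% higher and 12.4% lower. In the tumours against wildtype 46.8% were called, 22.1% higher and 24.7% lower, and in the tumours against Sufu KO 29.7%. Of 6 tested Hox genes of brainstem and spinal cord, out of 11 with a probe set, 0 passed in any comparison by limma and 0 had an unadjusted p under 0.05. Hoxb2 came nearest, at 0.17 log2 units in the tumours against wildtype (limma adjusted p = 0.0982), and 1 Hox gene was called there without tumour replicate 2. In the tumours against Sufu KO 1 was called without tumour replicate 2 and 1 with array weights. Of 10 Purkinje cell genes, 8 fell and 0 rose in Sufu KO against wildtype, and in the tumours 9 fell and 1 rose, Foxp2, a transcription factor gene (1.54). Of 12 genes of Bergmann glia and astrocytes, 9 fell in each mutant, and Sox9, a glial transcription factor gene, rose in the tumours (0.48). Of 11 oligodendrocyte genes, 9 fell in Sufu KO, where Pdgfra, a marker of oligodendrocyte precursors, rose (1.14), and 8 fell in the tumours, where Pdgfra (2.36) and the lineage factor gene Olig2 (0.51) rose. Of 8 choroid plexus genes, 3 rose and 0 fell in each mutant, but 1 was called in Sufu KO without wildtype replicate 1 or without Sufu KO replicate 1. Otx2 and Kl rose in both mutants, Sostdc1 in Sufu KO only and Clic6 in the tumours only. In wildtype Clic6, Kl and Sostdc1 averaged 5.87, 5.76 and 5.58 (log2), not far above the array 25th percentiles of 5.32 to 5.41. Ttr, Folr1, Kcne2 and Aqp1 passed in no comparison. Of 10 microglia genes, 1 rose in Sufu KO and 5 in the tumours, and 0 fell; the Sufu KO count was 3 without Sufu KO replicate 1, 2 without tumour replicate 1 and 5 with array weights.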

How the data were processed

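Per the labels' protocols, total RNA of dissected and frozen tissue was read on Mouse Gene 1.0 ST arrays (Affymetrix standard protocol). The authors deposited log2 expression values of 35556 probe sets on 9 arrays; the scale was read from the values (3.04 to 13.78), and the sources used here do not give the background correction, normalization or summary method. Probe sets were named by the platform annotation, with symbols checked through RefSeq identifiers (GRCm38.p6; 21698 of 21789 single-gene probe sets matched and 0 symbols changed). Promoter sequences came from RefSeq for Zic1, Zic4 and Zic5. Of 19938 genes, 16323 were tested, which exceeded the 25th percentile of the array on 3 or more arrays, and all 4 Zic genes were among them.

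With limma 3.58.1 (R 4.3.3), all 9 arrays entered 1 fit that gave each group its own mean. Its 2-sided p-values were adjusted by Benjamini-Hochberg over all genes tested, at a threshold of 0.05. Single probe sets were fitted likewise, over the 17877 that passed the filter. Gaps within arrays were compared by exact permutation over samples. The fitting code was tested on simulated data. The members and 13 gene lists were chosen with earlier results of these data known. By the naming rule, the genes that may be named are the members, checks of the labels, the 2 smallest p of each list, the 3 nearest profiles of each member (placeholder symbols left out) and the nearest genes on each side, and any list member where a count is 5 or less. Neighbours taken further out to reach a probe set were added later. Filters, scaling, priors, covariates, weights, probe sets and left-out replicates were varied.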

Additional observations from a re-analysis of the deposited data

How the results depend on the processing

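Of the 252 refits of single Zic genes, 232 kept the direction and the side of the threshold. In part of these refits the difference could not move, as when the array left out was of a group outside the comparison. The same holds for Zic1, Zic2 and Zic4 under the dimmer Zic5 probe set, and for Zic1 and Zic2 under averaged probe sets. The calls of Zic4 in the tumours, Zic5 in Sufu KO and Zic2 in both comparisons of the tumours held under all 21 settings each. The tumours' rise of Zic5 against wildtype was lost with no filter on low values (0.18, adjusted p = 0.0504), with arrays centred on their medians (0.17, adjusted p = 0.0686), with only the groups compared in the fit (0.18, adjusted p = 0.0524), with a sex covariate (0.14, adjusted p = 0.191) and without 7 of the 9 arrays in turn. Over all 9 such fits it ran from 0.15 to 0.22, and the highest value, without tumour replicate 2, kept the call (adjusted p = 0.0390). Averaging probe sets ended the rise of Zic4 in Sufu KO (0.13, adjusted p = 0.198), left 1 Zic gene called there and took the Zic1 minus Zic4 gap between Sufu KO and wildtype to -0.0090. The dimmer Zic5 probe set, an alternative chosen after seeing the data, ended the call of Zic5 in the tumours against Sufu KO (-0.15, adjusted p = 0.175). It left 1 Zic gene called in that comparison. Quantile normalization brought Zic1 past the threshold in the tumours against Sufu KO (-0.20, adjusted p = 0.0328). With array weights, whose estimation stopped before it converged, Zic4 passed in the tumours against Sufu KO (0.25), Zic2 in Sufu KO against wildtype read -0.0038, and 7418 genes were called in Sufu KO against wildtype (4150 without weights) and 8147 in the tumours against Sufu KO (4846 without). Leaving out replicates turned the sign of values near 0: Zic2 in Sufu KO against wildtype ran from -0.054 to 0.095, Zic1 in the tumours against wildtype from -0.068 to 0.00092, and the Zic2 minus Zic5 gap in the tumours against Sufu KO from -0.13 to 2.9e-05. The cause of these shifts was not tested.

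The groups share replicate numbers, but nothing in the labels says that they pair samples, and same-numbered arrays correlated in their deviations from the group means at -0.313 to 0.352. An array correlated best with its own number in 7 of 18 cases. With the replicate number as a block, the tumours' rise of Zic5 was 0.18 (adjusted p = 0.0677), the other calls of Zic genes kept their side, and the genes called numbered 3989 in Sufu KO against wildtype, 7520 in the tumours against wildtype and 4626 between the mutants. The values carry no detection calls, so whether dim probe sets, such as the second one of Zic4, stood above background was not tested. Differences of probe sets near background may be understated.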
